A study of Mus musculus with 7 samples.

Results

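The genes described here are the RNA-binding proteins Lin28a and Lin28b, which hold back the let-7 microRNAs, and 6 fetal growth genes that let-7 is known to repress: Trim71, Hmga1, Hmga2, Igf2bp1, Igf2bp2 and Igf2bp3. They were taken by symbol from the Ensembl IDs of the gene count table, which gave 8 of 43629 rows, and all 8 had enough counts to be tested. Poly(A) messenger RNA had been sequenced from 7 libraries of mouse E14 embryonic stem (ES) cells of the 129/Ola background. Knockout XEN cells (KO XEN in the plots, n = 2) are labelled as knockout of Ago2, the Argonaute protein that carries microRNAs to their targets, and came from the lines C4 and 5-3. They had spent 5 days in RPMI with 15% serum, activin A at 10 ng/mL and all-trans retinoic acid at 0.1 µM, a treatment that directs ES cells towards extra-embryonic endoderm (XEN). Wild-type XEN cells (WT XEN in the plots, n = 2, libraries A and B) had received the same treatment. Knockout ES cells (KO ESC in the plots, n = 3) were undifferentiated cells of C4 (1 library) and 5-3 (2 libraries, 5-3_1 and 5-3_2) kept in serum with LIF. Wild-type ES cells were not analysed here, so wild-type XEN and knockout ES differ both in genotype and in differentiation, and these cannot be told apart. The labels do not say which part of Ago2 the knockout removes, or whether C4 and 5-3 are single clones.

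Let-7 is a family of microRNAs that builds up as cells differentiate and that represses transcripts of proliferation and fetal growth through matches to its seed, the bases next to its 5′ end. LIN28A and LIN28B bind the loop of let-7 precursors. LIN28A recruits terminal uridylyltransferases that mark the precursor for decay. Both Lin28 genes carry let-7 sites themselves, so that the blocker and the microRNA can each hold down the other, and ES cells are known for high Lin28a and little mature let-7.

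The sequences that tie these genes together are the let-7 seed and its matches. RefSeq lists 9 mature mouse let-7 family names on the 5′ arm (GRCm38.p6), and they share 1 seed, bases 2 to 8, shown in capitals.
mmu-let-7a-5p: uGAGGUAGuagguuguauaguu
mmu-let-7b-5p: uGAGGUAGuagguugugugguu
mmu-let-7c-5p: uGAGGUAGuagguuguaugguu
mmu-let-7d-5p: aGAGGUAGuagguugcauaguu
mmu-let-7e-5p: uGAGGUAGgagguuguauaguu
mmu-let-7f-5p: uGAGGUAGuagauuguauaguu
mmu-let-7g-5p: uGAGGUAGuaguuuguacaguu
mmu-let-7i-5p: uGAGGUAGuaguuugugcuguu
mmu-miR-98-5p: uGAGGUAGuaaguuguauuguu
A seed match therefore does not tell the 9 apart.

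LIN28 is known to recognise the letters GGAG near the 3′ end of the precursor loop. These letters, searched on the RNA strand, stood between the mature arms in 9 of the 12 let-7 family hairpins and not in 3, those of let-7b, let-7c-2 and miR-98. Anywhere in the hairpin, GGAG stood in 9 of the 12 let-7 family hairpins and in 44.5% of 1005 mouse hairpins in the same table. The share of all hairpins with GGAG between the arms was not counted. A hairpin pair with the motif (capitals) and a pair without it are shown because they differ in the letters that LIN28 is known for.
let-7g hairpin: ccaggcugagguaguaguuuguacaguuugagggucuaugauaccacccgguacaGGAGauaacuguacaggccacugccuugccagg
let-7a-1 hairpin: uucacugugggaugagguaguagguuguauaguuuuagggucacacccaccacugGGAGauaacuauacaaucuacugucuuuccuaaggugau
let-7b hairpin: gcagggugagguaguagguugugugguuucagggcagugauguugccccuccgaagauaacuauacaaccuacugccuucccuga
let-7c-2 hairpin: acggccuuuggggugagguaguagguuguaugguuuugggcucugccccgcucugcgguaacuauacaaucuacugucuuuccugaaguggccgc
In the let-7g hairpin (chr9:106178840-106178927, plus strand) the motif began 7 bases before the 3′ arm, and in let-7a-1 (chr13:48538179-48538272, minus strand) 8 bases before it. The let-7b (chr15:85707319-85707403) and let-7c-2 (chr15:85706603-85706697) hairpins lie close together on the plus strand, and neither held the motif. Their positions are those of GRCm38, the assembly also called mm10.

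Seed matches were searched on the transcript strand of the longest annotated 3′ UTR of each gene (GENCODE M21, GRCm38). The 8mer is CTACCTCA, the 7mer-m8 is CTACCTC without the last A, and the 7mer-A1 is TACCTCA without the first C, and each position was counted once under the longest match. Of the 8 genes, 7 held an 8mer and 8 held at least a 7mer, against 3.06% and 14.9% of 21037 genes with an annotated 3′ UTR. The UTRs of the 8 genes, 1183 to 6337 bases long, are longer than the median of 960 bases, and longer UTRs hold more matches. Among UTRs within 20% of the length of each gene, 2.87% to 12.5% held an 8mer and 12.9% to 52.8% held any of the 3 types. A match is a description of the letters and not a shown binding site, and several of these genes are in the list because they are known let-7 targets.

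Trim71 (LIN41) held 4 8mers and 2 7mer-A1 matches in 5512 bases, and 0% of 790 UTRs of similar length held as many 8mers. Igf2bp1 held 3 8mers, 1 7mer-m8 and 1 7mer-A1 in 6337 bases, and 0.178% of 562 similar UTRs had as many 8mers. Lin28a held 2 8mers in 2775 bases, against 0.288% of 2429 similar UTRs. These 3 genes thus held more full matches than almost all UTRs of similar length. The 8 genes were chosen for known ties to let-7, so this excess is no separate finding. Hmga2 held the most matches of any type, with 1 8mer, 3 7mer-m8 and 3 7mer-A1 in 3014 bases. Lin28b held 1 8mer, 3 7mer-m8 and 1 7mer-A1 in 4445 bases. Igf2bp2 held 1 8mer and 1 7mer-A1 in 1784 bases, Igf2bp3 held 1 8mer in 2119 bases, and Hmga1 held a single 7mer-m8 in 1183 bases. The first match of each gene is printed with the bases before it because it is the letters that let-7 could pair with, and Trim71, the classical target, is given with its first pair. Capitals mark the match, coordinates are mm10, and all windows lie in 3′ UTR exons.
Lin28a 8mer, chr4:134005189-134005210 (minus strand): cacagcctgttgaaCTACCTCA
Lin28b 8mer, chr10:45381022-45381043 (minus strand): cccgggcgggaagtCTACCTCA
Trim71 8mer, chr9:114512472-114512493 (minus strand): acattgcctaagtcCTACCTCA
Trim71 8mer, chr9:114512376-114512397 (minus strand): gtgataatttctatCTACCTCA
Hmga1 7mer-m8, chr17:27563277-27563298 (plus strand): tcctctgttcacaaaCTACCTC
Hmga2 8mer, chr10:120364224-120364245 (minus strand): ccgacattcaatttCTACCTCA
Igf2bp1 8mer, chr11:95961778-95961799 (minus strand): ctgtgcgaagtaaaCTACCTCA
Igf2bp2 8mer, chr16:22059473-22059494 (minus strand): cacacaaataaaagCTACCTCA
Igf2bp3 8mer, chr6:49086787-49086808 (minus strand): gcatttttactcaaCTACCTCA
The printed Trim71 matches began 166 and 262 bases into its 3′ UTR, and that of Lin28b 36 bases into its own.

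**Figure D1:**
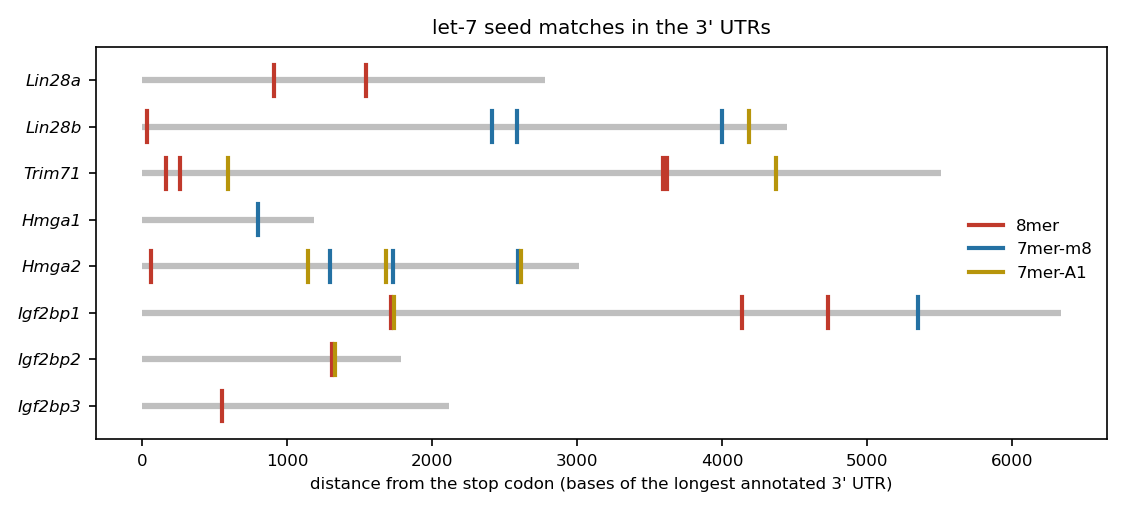
Positions of let-7 seed matches in the longest annotated 3′ UTR of each gene, in bases from the stop codon; grey bars are the UTRs and coloured ticks the 3 types of match. Trim71 holds 4 8mers in 5512 bases, whereas Hmga1 holds 1 7mer-m8 in 1183 bases.

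Total counts were 13941826 (C4) and 33389566 (5-3) in knockout XEN, 36427340 and 38595537 in wild-type XEN, and 39998808 to 48650113 in knockout ES, and the 8 genes had 78 to 31314 counts in each library. Levels are CPM, the count of a gene relative to the size of its library after TMM scaling between libraries. The Ago2 transcript, a check of the labels, was at 122 CPM in C4 and 9.94 CPM in 5-3 of knockout XEN, against 394 and 432 CPM in wild-type XEN, and in knockout ES it was at 94.4 CPM in C4 and 9.37 and 9.65 CPM in 5-3. The library labelled knockout C4 thus held more Ago2 transcript than 5-3 in both states. Summed ES cell markers (10 genes) ranged over 76.2 to 101 CPM in knockout XEN, 915 to 939 CPM in wild-type XEN and 6302 to 6479 CPM in knockout ES. Summed extra-embryonic endoderm markers (14 genes) ranged over 8214 to 9727 CPM in knockout XEN, 41550 to 66280 CPM in wild-type XEN and 605 to 624 CPM in knockout ES. Summed fibroblast and mesenchyme markers (10 genes) ranged over 10425 to 12854 CPM in knockout XEN, 844 to 1895 CPM in wild-type XEN and 36.2 to 40.9 CPM in knockout ES, where Col3a1 and Postn were at 0. Summed neural markers (8 genes) ranged over 470 to 543 CPM in knockout XEN, 61.0 to 92.9 CPM in wild-type XEN and 505 to 543 CPM in knockout ES. Of the 14 endoderm markers, 13 were lower in knockout XEN than in wild-type XEN and 12 were higher in knockout XEN than in knockout ES (edgeR). Of all 18426 genes tested, 23.9% were lower in the first comparison and 34.8% higher in the second. Sparc made up 4746 of 8214 CPM in C4 and 5256 of 9727 CPM in 5-3 of the knockout XEN sum, while Sox7, at 1.52 and 3.11 CPM, and Lama1, at 116 and 300 CPM, did not pass the threshold over knockout ES. Acta2 (4090 CPM in C4, 4473 CPM in 5-3) and Tagln (3585 and 4044 CPM) led the mesenchyme sum in knockout XEN. Of the 10 mesenchyme markers, 8 were higher in knockout XEN than in wild-type XEN and Col1a2 was lower (edgeR). Against knockout ES 9 were higher and Thy1 was lower (edgeR). Of all genes tested, 22.3% were higher in knockout XEN than in wild-type XEN and 34.8% higher than in knockout ES. The knockout cells under the XEN label thus held most endoderm markers above knockout ES and below wild-type XEN, beside a mesenchyme sum above that of both. The part of these marker levels in the differences below was not tested.

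The blockers of let-7 went in opposite directions between the genotypes after differentiation. Lin28a (ENSMUSG00000050966, chr4:134003330-134018841, minus strand) stood at 17.2 CPM in C4 and 7.75 CPM in 5-3 of knockout XEN, against 159 and 287 CPM in wild-type XEN A and B and 408, 345 and 337 CPM in knockout ES C4, 5-3_1 and 5-3_2. Every knockout XEN library was below every wild-type XEN library, and every wild-type XEN library below every knockout ES library. Lin28a was lower in knockout XEN than in wild-type XEN, with a log2 fold change of -4.18 ± 0.43 (SE; adjusted p = 0.000347 by the quasi-likelihood test of edgeR, adjusted over all genes tested after Benjamini and Hochberg). It was also lower in knockout XEN than in knockout ES, at -4.89 ± 0.44 (adjusted p = 3.27e-05, edgeR). Without the C4 library of knockout XEN these log2 fold changes were -4.84 and -5.54. Between wild-type XEN and knockout ES the log2 fold change was -0.71 ± 0.35 and did not pass the edgeR threshold (adjusted p = 0.111), although the libraries did not overlap. That call depended on the fit: adjusted p was 0.0498 with the 2 groups fitted alone, 0.0470 with line as a block (log2 fold change -0.81) and 0.0471 without wild-type XEN B (-1.19), in a range of 0.0470 to 0.501 over the edgeR and DESeq2 alternatives.

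In bulk RNA a lower level can mean fewer cells with the transcript or less transcript per cell, and these cannot be told apart here. Lin28a and the summed ES cell markers had the same order of groups, lowest in knockout XEN and highest in knockout ES. Dppa5a led that sum in wild-type XEN, with 489 of 915 CPM in A and 577 of 939 CPM in B. Of the 10 markers, 8 were lower in knockout XEN than in wild-type XEN (edgeR). Sox2 and Tdgf1 were not called there (log2 fold changes 0.02 and 0.06). Against knockout ES 9 were lower in wild-type XEN, and Klf4 was not called (-0.10, edgeR). Of all genes tested, 23.9% were lower in knockout XEN than in wild-type XEN. In wild-type XEN against knockout ES 30.3% were lower.

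Lin28b (ENSMUSG00000063804, chr10:45376620-45486395, minus strand) stood at 24.1 CPM in C4 and 13.7 CPM in 5-3 of knockout XEN, against 2.85 and 2.21 CPM in wild-type XEN and 61.3, 42.5 and 48.7 CPM in knockout ES. The 3 groups did not overlap, and here the wild-type XEN libraries were the lowest. Lin28b was higher in knockout XEN than in wild-type XEN (log2 fold change 2.89 ± 0.33, adjusted p = 0.000495, edgeR). It was lower in knockout XEN than in knockout ES (-1.44 ± 0.29, adjusted p = 0.00263) and lower in wild-type XEN than in knockout ES (-4.33 ± 0.34, adjusted p = 3.05e-05, both edgeR). The summed neural markers were also lowest in wild-type XEN, but different genes led the sum, Nes in knockout XEN (425 and 331 CPM) and Stmn2 in knockout ES (399 to 439 CPM), and Nes and Dcx were lowest in knockout ES.

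Set per kilobase of exon, so that both genes are on one scale, the level of Lin28a was 4.31 CPM per kb in C4 and 1.94 in 5-3 of knockout XEN, 39.7 and 71.7 in wild-type XEN, and 102, 86.3 and 84.4 in knockout ES. The level of Lin28b was 2.66 CPM per kb in C4 and 1.51 in 5-3 of knockout XEN, 0.314 and 0.244 in wild-type XEN, and 6.76, 4.69 and 5.37 in knockout ES. Lin28a was the higher of the pair in all 7 libraries, but by very unequal ratios. The ratio of Lin28a to Lin28b per length was 1.62 in C4 and 1.29 in 5-3 of knockout XEN, against 126 and 294 in wild-type XEN and 15.1, 18.4 and 15.7 in knockout ES. Lin28b thus made up 38.2% and 43.7% of the summed level of both genes in knockout XEN, 0.785% and 0.339% in wild-type XEN, and 5.15% to 6.21% in knockout ES. The summed level was lowest in knockout XEN, at 6.96 CPM per kb in C4 and 3.45 in 5-3, against 40.03 and 71.98 in wild-type XEN and 89.8 to 109 in knockout ES.

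**Figure D2:**
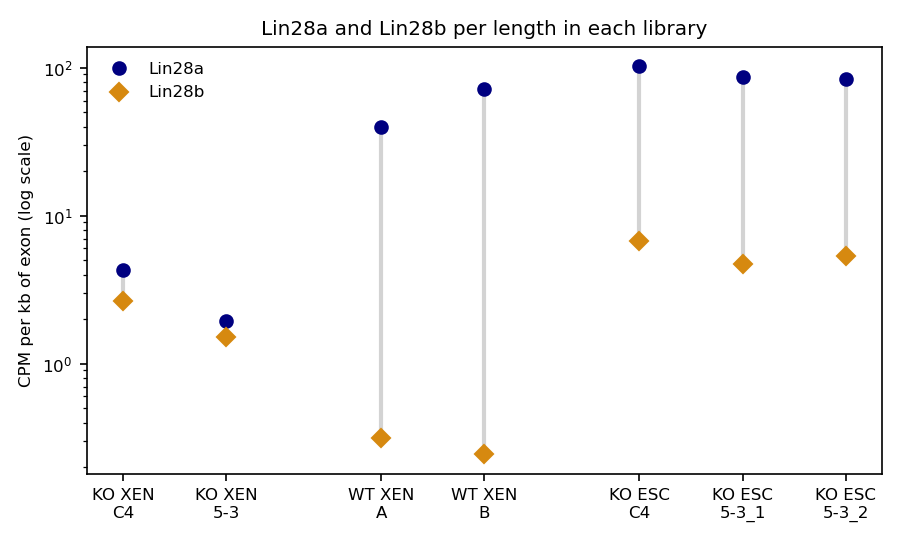
Levels of Lin28a (circles) and Lin28b (diamonds) in each library, in CPM per kb of exon on a log axis; grey lines join the pair within a library. The pair is close together in knockout XEN (ratios of 1.62 and 1.29) and farthest apart in wild-type XEN (126 and 294).

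Trim71 (ENSMUSG00000079259, chr9:114507133-114564369, minus strand) encodes an RNA-binding ubiquitin ligase of early embryos and is the classical let-7 target. It stood at 78.8 CPM in C4 and 46.4 CPM in 5-3 of knockout XEN, against 152 and 176 CPM in wild-type XEN and 328, 447 and 417 CPM in knockout ES. The groups did not overlap and had the order seen for Lin28a. Trim71 was lower in knockout XEN than in wild-type XEN (log2 fold change -1.39 ± 0.27, adjusted p = 0.00425, edgeR). It was lower in knockout XEN than in knockout ES (-2.67 ± 0.27, adjusted p = 6.05e-05) and lower in wild-type XEN than in knockout ES (-1.28 ± 0.25, adjusted p = 0.00271, both edgeR). These 3 calls held under all 14 alternatives tried.

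The HMGA genes encode small AT-hook proteins that bend DNA and open chromatin, and the pair moved in opposite directions with differentiation. Hmga2 (ENSMUSG00000056758, chr10:120361275-120476469, minus strand) stood at 97.9 CPM in C4 and 158 CPM in 5-3 of knockout XEN, against 89.1 and 100.4 CPM in wild-type XEN and 10.7, 15.8 and 18.4 CPM in knockout ES. The XEN libraries of both genotypes overlapped, and all 4 lay far above the ES libraries. Hmga2 was higher in knockout XEN than in knockout ES (log2 fold change 3.10 ± 0.28, adjusted p = 3.21e-05) and higher in wild-type XEN than in knockout ES (2.66 ± 0.27, adjusted p = 0.000103, both edgeR). In knockout XEN against wild-type XEN it gave a log2 fold change of 0.43 ± 0.30 (adjusted p = 0.264, edgeR). Without the C4 library of knockout XEN it was 0.74 and not called (adjusted p = 0.118), and without the C4 library of knockout ES as well it was again 0.74 and called (adjusted p = 0.0252). Without the 5-3 library of knockout XEN it was -0.037, in a range of adjusted p from 0.0252 to 0.952 over the alternatives. The size of the Hmga2 difference between the genotypes thus depended on which knockout XEN library was kept, and its call also on the C4 library of knockout ES.

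Hmga1 (ENSMUSG00000046711, chr17:27556497-27563674, plus strand) stood at 5.66 CPM in C4 and 4.55 CPM in 5-3 of knockout XEN, against 7.75 and 5.31 CPM in wild-type XEN and 39.5, 55.1 and 56.4 CPM in knockout ES. Both XEN groups were low and overlapped, and every ES library was above them. Hmga1 was lower in knockout XEN than in knockout ES (log2 fold change -3.31 ± 0.28, adjusted p = 2.60e-05) and lower in wild-type XEN than in knockout ES (-2.95 ± 0.27, adjusted p = 6.27e-05, both edgeR). Hmga1 gave -0.37 ± 0.28 in knockout XEN against wild-type XEN (adjusted p = 0.316, edgeR). These values are uncertain because Hmga1 has a near-identical copy on chromosome 11, Hmga1b, between which reads may be split, and because the antisense gene AI413582, whose exons overlap it, had 1.92% to 222% of its CPM. Hmga1b had 24.8 and 17.7 CPM in knockout XEN, 30.9 and 15.9 CPM in wild-type XEN, and 101, 151 and 144 CPM in knockout ES, which is more than Hmga1 in every library. With both copies summed, a step chosen after seeing the data, the means were 26.3 CPM in knockout XEN, 29.9 CPM in wild-type XEN and 182 CPM in knockout ES. The log2 ratio of these summed means was -0.19 for knockout XEN over wild-type XEN, -2.79 for knockout XEN over knockout ES and -2.61 for wild-type XEN over knockout ES, so the summed copies moved as Hmga1 did.

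Per length, the ratio of Hmga2 to Hmga1 in CPM per kb was 5.43 in C4 and 10.9 in 5-3 of knockout XEN, against 3.61 and 5.93 in wild-type XEN and 0.0846, 0.0898 and 0.102 in knockout ES. With Hmga1b left out, Hmga2 was thus the higher of the pair in every XEN library and Hmga1 in every ES library. Counting the copy turned this order in 2 of the 4 XEN libraries. The ratio of Hmga2 to the summed CPM per kb of Hmga1 and Hmga1b was 0.808 in C4 and 1.79 in 5-3 of knockout XEN, against 0.581 and 1.21 in wild-type XEN and 0.0195, 0.0196 and 0.0236 in knockout ES. The order within the pair in XEN libraries therefore depends on how reads of the copies were counted.

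The IGF2BP proteins bind Igf2, Myc, Actb and other messenger RNAs and steer their stability, transport and translation. Igf2bp1 (ENSMUSG00000013415, chr11:95957163-96005940, minus strand) stood at 488 CPM in C4 and 357 CPM in 5-3 of knockout XEN, against 337 and 401 CPM in wild-type XEN and 532, 676 and 627 CPM in knockout ES. The XEN groups overlapped and lay below all ES libraries, with C4 of knockout XEN close to C4 of knockout ES. Igf2bp1 was lower in knockout XEN than in knockout ES (log2 fold change -0.53 ± 0.19, adjusted p = 0.0343) and lower in wild-type XEN than in knockout ES (-0.73 ± 0.19, adjusted p = 0.0106, both edgeR). The genotypes gave 0.20 ± 0.20 in knockout XEN against wild-type XEN (adjusted p = 0.463, edgeR). Neither fall was firm. The first lost its edgeR call without knockout XEN 5-3 (adjusted p = 0.169), knockout ES 5-3_1 (0.0721) or knockout ES 5-3_2 (0.0517), in a range of 0.0109 to 0.169. The second lost it without wild-type XEN A (adjusted p = 0.0673), in a range of 0.00146 to 0.0673.

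Igf2bp2 (ENSMUSG00000033581, chr16:22059009-22163299, minus strand) stood at 107 CPM in C4 and 124 CPM in 5-3 of knockout XEN, against 173 and 194 CPM in wild-type XEN and 162, 116.5 and 119 CPM in knockout ES. Wild-type XEN was above all other libraries, whereas knockout XEN overlapped knockout ES. Igf2bp2 was lower in knockout XEN than in wild-type XEN (log2 fold change -0.66 ± 0.20, adjusted p = 0.0278, edgeR). This call was lost without wild-type XEN B (adjusted p = 0.117) or without knockout XEN C4 (0.147), in a range of 0.00469 to 0.147, while the log2 fold change stayed between -0.86 and -0.56 under all 14 alternatives. Igf2bp2 gave -0.19 ± 0.18 in knockout XEN against knockout ES (adjusted p = 0.373, edgeR). In wild-type XEN against knockout ES it gave 0.47 ± 0.18 (adjusted p = 0.0507, edgeR). The comparison of wild-type XEN with knockout ES passed without knockout ES C4 (log2 fold change 0.62, adjusted p = 0.00652), without both C4 libraries (0.64, adjusted p = 0.00884) and with the 2 groups fitted alone (adjusted p = 0.0496), in a range of 0.00652 to 0.193.

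Igf2bp3 (ENSMUSG00000029814, chr6:49085223-49214957, minus strand) stood at 102 CPM in C4 and 130.4 CPM in 5-3 of knockout XEN, against 124 and 103 CPM in wild-type XEN and 94.5, 26.6 and 27.6 CPM in knockout ES C4, 5-3_1 and 5-3_2. The C4 ES library stood near the XEN libraries and apart from both 5-3 ES libraries. Its log2 fold change was 0.03 ± 0.57 in knockout XEN against wild-type XEN (adjusted p = 0.974), 1.23 ± 0.51 in knockout XEN against knockout ES (adjusted p = 0.0624) and 1.20 ± 0.51 in wild-type XEN against knockout ES (adjusted p = 0.0729, all edgeR), so it was not called in any comparison. The calls of both comparisons with knockout ES depended on the fit and on the C4 ES library. Without it the log2 fold changes were 2.01 (adjusted p = 0.000100) and 2.05 (adjusted p = 0.000138), and without both C4 libraries 2.27 (adjusted p = 0.000482) and 2.06 (adjusted p = 0.000435). With line as a block they were 1.41 (adjusted p = 0.0202) and 1.25 (adjusted p = 0.0337), and DESeq2 gave 1.20 (adjusted p = 0.0296) and 1.17 (adjusted p = 0.0364). Adjusted p ranged from 0.000100 to 0.242 and from 0.000138 to 0.214 over the alternatives. Exons of the antisense gene Malsu1 overlap Igf2bp3, and its counts came to 7.43% to 58.8% of those of Igf2bp3, so the lower ES values are the less certain ones.

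Within the family, Igf2bp1 had the highest level per length in every library. It made up 65.2% of the summed CPM per kb in C4 and 52.95% in 5-3 of knockout XEN, 47.4% and 51.6% in wild-type XEN, and 62.1%, 78.6% and 76.9% in knockout ES. Igf2bp3 made up 16.1% and 22.9% in knockout XEN, 20.7% and 15.7% in wild-type XEN, and 13.1%, 3.68% and 4.01% in knockout ES. The summed level of the 3 genes was 77.4 and 69.7 CPM per kb in knockout XEN, 73.3 and 80.2 in wild-type XEN, and 84.1 to 88.8 in knockout ES.

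**Figure D3:**
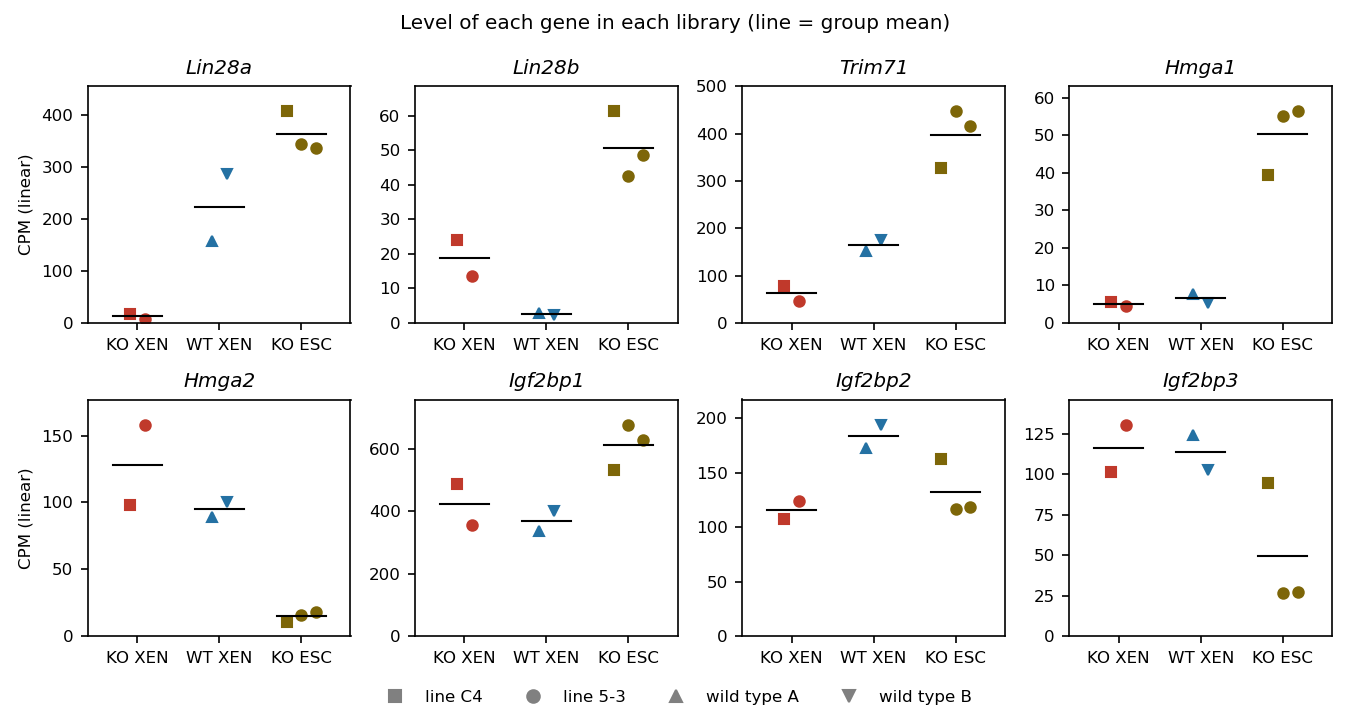
CPM of each gene in each library on linear axes, with knockout XEN, wild-type XEN and knockout ES from left to right; symbols mark the line and the horizontal bars are group means. Lin28a, Lin28b and Trim71 separate all 3 groups, Hmga1 and Hmga2 separate the XEN from the ES libraries, and knockout ES C4 stands at 94.5 CPM for Igf2bp3 against 26.6 and 27.6 CPM in 5-3.

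Between knockout XEN and wild-type XEN, 4 of the 8 genes passed the edgeR threshold, where 46.2% of 18426 genes tested did. Lin28b was higher, against a background of 22.3% of genes called higher, and Lin28a, Trim71 and Igf2bp2 were lower, against 23.9% called lower. Between knockout XEN and knockout ES 6 of 8 passed, against 69.0% of all genes. Hmga2 was higher (background 34.8%) and Lin28a, Lin28b, Trim71, Hmga1 and Igf2bp1 were lower (background 34.3%). Between wild-type XEN and knockout ES 5 of 8 passed, against 62.5%, with Hmga2 higher (background 32.2%) and Lin28b, Trim71, Hmga1 and Igf2bp1 lower (background 30.3%). The shares called were near the background in each comparison, so the number of calls does not set the 8 genes apart from other genes. Both comparisons with knockout ES share its 3 libraries.

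**Figure D4:**
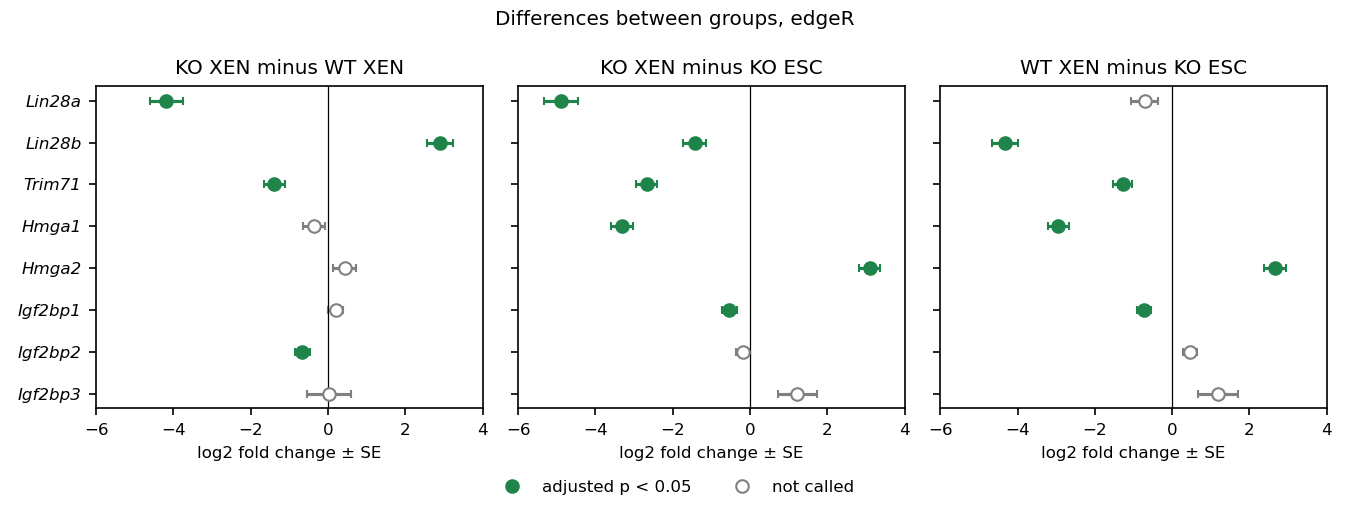
Log2 fold change with its SE (edgeR) of each gene in the 3 comparisons; filled points passed an adjusted p of 0.05. Lin28a and Lin28b lie on opposite sides in knockout XEN minus wild-type XEN (-4.18 and 2.89), and Hmga1 and Hmga2 on opposite sides in knockout XEN minus knockout ES (-3.31 and 3.10).

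The knockout lines differed in some of these genes, with 1 C4 library in each state and thus no test. In knockout XEN, C4 over 5-3 was 2.22-fold for Lin28a, 1.76-fold for Lin28b and 1.70-fold for Trim71, and 0.620-fold for Hmga2. In knockout ES the C4 level over the mean of both 5-3 libraries was 3.49-fold for Igf2bp3, 1.38-fold for Igf2bp2 and 0.624-fold for Hmga2. Hmga2 was thus lower in C4 by a like factor in both states, whereas Igf2bp3 was higher in C4 in ES cells and at 0.779-fold in XEN cells. The Ago2 transcript was 12.2-fold higher in C4 than in 5-3 in knockout XEN and 9.93-fold higher in knockout ES. The part of the Ago2 transcript in these line differences was not tested.

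The other genes of the pathway were read from the same fit. The list of let-7 targets outside the 8 genes held 28 genes, of which 27 were tested and Acvr1c had too few counts. Between knockout XEN and wild-type XEN 10 were higher, 5 lower and 12 not past the edgeR threshold, where 22.3% of all genes were higher and 23.9% lower, with a median log2 fold change of 0.49 beside 0.00 over all genes. Myc, a transcription factor of cell growth, was at 90.0 and 68.0 CPM in knockout XEN against 8.27 and 4.40 CPM in wild-type XEN (log2 fold change 3.64 ± 0.63, adjusted p = 0.00257, edgeR). The death receptor Fas (2.403 ± 0.44) and the cell cycle kinase Cdk6 (2.03 ± 0.30) were also higher. Against them, the transcription factors Mycn (-1.21 ± 0.24), Nr6a1 (-1.46 ± 0.31), Arid3b (-0.86 ± 0.16) and Hic2 (-0.80 ± 0.15) were lower. The let-7 targets of this list thus went both ways between the genotypes. Among the 8 genes only Lin28b was called higher, and Lin28a, Trim71 and Igf2bp2 were lower.

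Against knockout ES, the same list had 12 higher, 9 lower and 6 not called in knockout XEN (median 0.36 beside -0.08 over all genes), and 11 higher, 9 lower and 7 not called in wild-type XEN (median -0.0022 beside -0.03). Over all genes 34.8% were called higher and 34.3% lower in knockout XEN, and 32.2% and 30.3% in wild-type XEN. Thbs1, a secreted matrix glycoprotein, was at 1358 and 1039 CPM in knockout XEN, 304 and 137 CPM in wild-type XEN and 0.720 to 1.76 CPM in knockout ES. Irs2, an adaptor of the insulin receptor, rose by 3.54 ± 0.25 on the log2 scale in knockout XEN over knockout ES, and Arid3a by 2.14 ± 0.17. Cyclin D1 (Ccnd1) was lower in both, with a log2 fold change of -2.38 ± 0.37 in knockout XEN and -4.45 ± 0.41 in wild-type XEN, and so was the cell cycle factor E2f2 (-2.68 ± 0.31 and -3.28 ± 0.32). Cyclin D2 (Ccnd2) was higher than in knockout ES in both, by 2.75 ± 0.24 on the log2 scale in knockout XEN and 2.81 ± 0.24 in wild-type XEN. Cdc25a and Arid3b were lower than in knockout ES in both XEN groups, Mycn, Nr6a1, Hic2 and Dicer1 were lower in knockout XEN, and Myc, Cdk6 and Igdcc3 were lower in wild-type XEN. Myc differed between the ES libraries, at 22.8 CPM in C4 and 83.6 and 78.7 CPM in 5-3.

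The genes that make, trim or load let-7 were represented by 16 genes. Of these, 2 were higher in knockout XEN than in wild-type XEN, 3 lower and 11 not called, where 46.2% of all genes were called (median log2 fold change -0.19 beside 0.00). Tut7, 1 of the uridylyltransferases that LIN28A recruits, was at 65.0 and 64.6 CPM in knockout XEN against 118 and 135 CPM in wild-type XEN (-0.96 ± 0.20, adjusted p = 0.00649, edgeR). The poly(A) polymerase Tent2 (-1.16 ± 0.24) and Ago3 (-1.44 ± 0.31) were lower, and the Dicer partner Prkra (1.00 ± 0.27) and the RNA-binding protein Hnrnpa1 (0.76 ± 0.21) were higher. Against knockout ES the list had 2 higher, 7 lower and 7 not called in knockout XEN (median -0.26 beside -0.08, with 69.0% of all genes called), where Prkra and Ago4 were higher and Ago3 and the exportin Xpo5 among the lower. In wild-type XEN it had 4 higher, 6 lower and 6 not called (median -0.17 beside -0.03, with 62.5% of all genes called). Ago4, Tut7 and Dis3l2, the exonuclease that degrades uridylated let-7 precursors, were higher, and Hnrnpa1 and Ago1 were among the lower. The remaining higher gene was Ago2, the gene labelled as knocked out, so its call is no finding about the list. Between knockout XEN and wild-type XEN Ago2 was among the 11 not called (log2 fold change -2.66 ± 1.36, adjusted p = 0.145, edgeR).

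Transcripts that LIN28 or IGF2BP proteins are known to bind were represented by 8 genes. Between knockout XEN and wild-type XEN 5 were higher, 1 lower and 2 not called (median log2 fold change 1.10 beside 0.00), against 22.3% of all genes higher and 23.9% lower. The cell adhesion receptor Cd44 (1.10 ± 0.25), β-actin (Actb, 1.10 ± 0.26) and Myc were higher. Against knockout ES 5 were higher, 1 lower and 2 not called in knockout XEN (median 1.83, with 34.8% of all genes higher and 34.3% lower), and 3 higher, 2 lower and 3 not called in wild-type XEN (median 0.82, with 32.2% and 30.3%). Igf2, the fetal growth factor after which the IGF2BP family is named, was at 1269 and 3018 CPM in knockout XEN, 1064 and 566 CPM in wild-type XEN and 4.68 to 5.66 CPM in knockout ES, and Cd44 and Igf1r were also higher in both XEN groups than in knockout ES. Myc and Igf1r also stand in the list of let-7 targets.

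Transcripts that TRIM71 is known to repress were represented by 6 genes. Between knockout XEN and wild-type XEN 3 were higher, 1 lower and 2 not called (median log2 fold change 0.72 beside 0.00), against 22.3% of all genes higher and 23.9% lower. The cell cycle inhibitor Cdkn1a was at 1039 and 845 CPM in knockout XEN, 199 and 123 CPM in wild-type XEN and 48.3 to 53.1 CPM in knockout ES (knockout XEN against wild-type XEN 2.55 ± 0.25, adjusted p = 0.000279, edgeR). The immediate early gene Egr1 (2.25 ± 0.29) and the pocket protein Rbl2 (1.02 ± 0.23) were higher in knockout XEN, and its relative Rbl1 was lower (-1.54 ± 0.32). Against knockout ES 4 were higher, 1 lower and 1 not called in knockout XEN (median 0.96, with 34.8% of all genes higher and 34.3% lower), and 3 higher, 1 lower and 2 not called in wild-type XEN (median 0.49, with 32.2% and 30.3%). With 6 to 8 genes in these lists, 1 gene moves such a share widely. Cdkn1a, the plexin receptor Plxnb2 and the splicing regulator Mbnl1 were higher in both XEN groups, Rbl1 was lower in knockout XEN, and Egr1 was lower in wild-type XEN (-2.29 ± 0.27).

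**Figure D5:**
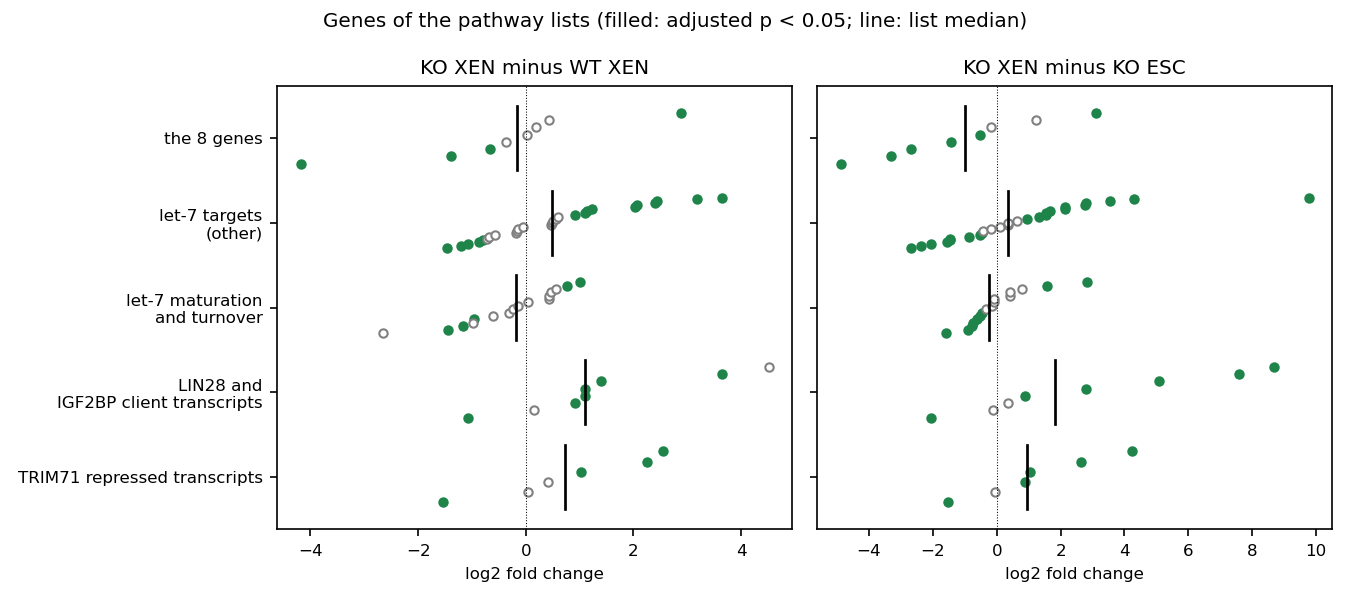
Log2 fold changes (edgeR) of the 8 genes and of the genes of 4 pathway lists in knockout XEN minus wild-type XEN and knockout XEN minus knockout ES; filled points passed an adjusted p of 0.05 and vertical bars are list medians. The let-7 targets outside the 8 genes lie on both sides of 0 in both panels, with medians of 0.49 and 0.36.

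A wider view took every tested gene with an annotated 3′ UTR, the 8 genes left out. In knockout XEN against wild-type XEN the median log2 fold change was -0.37 for 25 genes with 2 or more let-7 8mers, 0.00 for 519 genes with 1 8mer, -0.0073 for 1960 genes with only 7mers and 0.03 for 12619 genes without a match. In knockout XEN against knockout ES these medians were 0.64, 0.49, 0.25 and 0.07, and in wild-type XEN against knockout ES 0.10, 0.40, 0.26 and 0.05, in the same order of classes. Against knockout ES every class with a match thus had a higher median than the class without one, and between the genotypes it had not. The classes also differ in UTR length, with medians of 3635, 2329, 2317 and 956 bases, and the part of length was not tested.

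Poly(A) libraries do not measure mature microRNAs, and the counts of the let-7 loci were near 0. Of 10 let-7 hairpin genes in the count table, 5 had 0 counts in every library, and the highest value was 5 counts, where a count of 0 allows up to 0.218 CPM in the shallowest library. Mir99ahg, the host transcript of a let-7c hairpin, was at 2.54 and 1.72 CPM in knockout XEN against 0.712 and 1.13 CPM in wild-type XEN, and had 0 counts in knockout ES, which allows up to 0.0600 to 0.0720 CPM. The level of let-7 itself in these cells is thus not known from these data.

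The genes whose pattern over the 7 libraries was nearest to each of 4 of the genes were found by the root mean square difference of centred log2 CPM among 9800 genes whose mean reached 10 CPM. Nearest to Lin28a were the amino acid transporter Slc6a15 (0.247), the pluripotency factor Sall4 (0.268) and the mitotic motor Cenpe (0.328). Nearest to Lin28b were the DNA sensor Aim2 (0.255), the epoxide hydrolase Ephx2 (0.260) and the lipid transfer protein Pitpnc1 (0.292). Nearest to Hmga2 were the kinase Camk1 (0.190), Tsc22d3 (0.238) and the metalloprotease Adam15 (0.241). Nearest to Igf2bp3 were Prrc1 (0.107), Tbc1d16 (0.209) and Sh3bgrl (0.304). Prrc1 had 91.1 CPM in knockout ES C4 against 23.6 CPM in 5-3_2, and 100.4 to 114 CPM in the 4 XEN libraries, so this gene, selected for its likeness, showed the same split of the ES libraries by line.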

How the data were processed

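Poly(A) RNA of 7 libraries was sequenced after TruSeq preparation, reverse-stranded per the labels. Per the submitters' processing notes STAR 2.4.2a, featureCounts 1.4.5-p1 and mm10 were used. The deposited values are raw counts per Ensembl gene. The strand setting of the counting and the annotation release are not given in the sources used here. GENCODE M21 gave 42548 of 43629 IDs a symbol, and the 1081 others held 0.136% of counts. One edgeR 4.0.16 quasi-likelihood fit (R 4.3.3, limma 3.58.1) took all 7 libraries in 3 groups, with TMM scaling and filterByExpr, so 18426 genes were tested and 25203 were not. A call is an adjusted p (Benjamini-Hochberg) under 0.05. The pipeline was also run on simulated counts, and the outcome of that run is not given here. CPM uses the TMM-scaled library size, and CPM per kb divides by union exon length. Floors are 3 counts per library and cover counting error only. The labels do not say whether libraries came from separate cultures, so p-values measure the spread between libraries. C4 and 5-3 pair knockout XEN with knockout ES by labelled line: the difference between the lines in knockout ES had r = 0.0634 with that in knockout XEN over 18426 genes. Alternatives were RLE and upper-quartile scaling, DESeq2 1.42.0, no low-count filter, the 2 groups alone, line as a block, and leaving out each library or both C4 libraries. Library pairs were compared within groups only, and none of those compared agreed within sampling noise (chi-square per degree of freedom 21.1 to 103). Pairs of C4 with 5-3 also differ in line. Named genes are the 8 genes, Ago2, let-7 loci, up to 4 called members per list and comparison with the smallest adjusted p, members called against the majority, and the 3 nearest genes per pattern. Some list members that this rule names are not reported here. Members and lists were chosen with earlier results of these data known.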

Additional observations from a re-analysis of the deposited data

Results flagged for a closer look

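Igf2bp2 gave values of opposite sign for differentiation in the knockout lines, of which those in 5-3 were close to 0. In C4 its log2 level in knockout XEN minus that in knockout ES was -0.60 (107 and 162 CPM). In 5-3 it was 0.09 against library 5-3_1 and 0.07 against 5-3_2 (124 CPM in knockout XEN, 116.5 and 119 CPM in knockout ES). The difference between the lines was not tested, since C4 has 1 library in each state.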

How the results depend on the processing

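The 8 genes gave 24 fold changes, and each was recomputed under 14 alternatives. Direction and call held under all 14 for 13 of them. Of 336 values, 303 kept direction and call, 6 lost the call, 15 gained it and 12 changed sign. All sign changes were of fold changes that were not called. For knockout XEN against wild-type XEN, Igf2bp3 was -0.030 without a low-count filter and -0.0084 with the 2 groups alone, and ranged from -0.24 to 0.20 when libraries were left out. In the same comparison Hmga2 ranged from -0.037 to 0.74 and Igf2bp1 from -0.044 to 0.32, with Igf2bp1 at -0.044 without both C4 libraries. Without both C4 libraries Igf2bp2 was 0.080 in knockout XEN against knockout ES. The cause of these changes was not tested. Leaving out a library can leave 1 in a group, which is then assumed to vary like the others. The count of genes called ranged over 5743 to 9431, 10383 to 12906 and 9616 to 11803 in knockout XEN against wild-type XEN, knockout XEN against knockout ES and wild-type XEN against knockout ES, and that of the 8 genes over 3 to 5, 5 to 7 and 4 to 7. With line as a replicate block 4, 7 and 7 of the 8 genes were called, and the calls it changed are those of Lin28a and Igf2bp3 against knockout ES given with their values. Upper-quartile scaling moved the median of all genes to -0.19 in knockout XEN against knockout ES and to -0.20 in wild-type XEN against knockout ES, with 6044 higher and 6763 lower, and 5359 higher and 6435 lower. With Hmga1b summed, mean Hmga1 was 26.3 CPM in knockout XEN, 29.9 CPM in wild-type XEN and 182 CPM in knockout ES. The C4 library of knockout XEN has the fewest counts, and low genes are least precise there.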

Other observations

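H19, an imprinted noncoding RNA next to Igf2 and a member of the list of LIN28 and IGF2BP client transcripts, was singled out after its values were seen. It stood at 3591 CPM in C4 and 14.3 CPM in 5-3 of knockout XEN, against 122 and 36.2 CPM in wild-type XEN and 27.8, 0.288 and 0.280 CPM in knockout ES C4, 5-3_1 and 5-3_2. The C4 library was the higher of the knockout lines in both states. Its neighbour Igf2 was at 1269 CPM in C4 and 3018 CPM in 5-3 of knockout XEN, so the order of the lines was the opposite there. With 1 C4 library in each state these differences were not tested.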
